A study of Homo sapiens with 39 samples.

Results

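The 10 genes described here build the microvillus and the brush border: VIL1, ESPN, PLS1 and EPS8 organise its actin core, EZR and MYO1A tie the core to the membrane, and CDHR2, CDHR5, USH1C and MYO7B form the adhesion complex of its tips. They were named by gene symbol for these known roles, and each symbol matched 1 row in each of the 13 deposited tables, so the set holds 10 of 45435 gene rows. RNA-seq had been made from 39 poly(A) libraries of HCT116, a human colorectal carcinoma cell line, in 13 groups of 3. The parental group was the Flp-In host line without an HNF4A construct. Each other group was 1 stable line carrying 1 of the 12 isoforms of the nuclear receptor HNF4A, fused to GFP and switched on by doxycycline. All cells, the parental ones included, had received 2.5 µg/ml doxycycline for 48 h. Until induction the parental cells had been kept under blasticidin and zeocin and the lines under blasticidin and hygromycin B. Each isoform was represented by a single line and no group made GFP by itself, so effects of the isoform, of GFP and of how a line was derived cannot be told apart.

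The lines are grouped below by the standard nomenclature of the isoforms, which the labels do not give. Isoforms 1 to 6 are products of promoter P1 and isoforms 7 to 12 of promoter P2. Within P1, isoforms 4 to 6 carry the sequence of exon 1B. The order of C-terminal forms is the same in every set: full length in isoforms 1, 4, 7 and 10, full length with a 10-residue insertion in isoforms 2, 5, 8 and 11, and shortened in isoforms 3, 6, 9 and 12.

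A microvillus is a finger of membrane around a core of parallel actin filaments. Villin, espin and plastin 1 cross-link the filaments, EPS8 sits at the tips and regulates filament ends, and the ezrin protein and the motor myosin 1a hold the membrane to the core. Neighbouring tips are joined by the protocadherins CDHR2 and CDHR5, which are held inside the cell by the scaffold harmonin (USH1C) and the motor MYO7B. In the intestine these parts assemble as enterocytes mature, and HNF4A is a transcription factor of that epithelium.

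HNF4A itself stood at 31.5 TPM ± 0.589 (SD, n = 3) in parental cells, and the 12 line means ran from 613.5 TPM (isoform 2) up to 1071 TPM (isoform 6). TPM is a level scaled per transcript length and per library, so it can be compared between genes. The files give TPM without counts, so the read depth of a library is unknown, and the libraries had 27884 to 30550 genes above 0. All 5 epithelial markers were present (summed level 3044 to 3171 TPM in the parental libraries and 2476 to 5580 TPM in the lines). Of the markers of other cell types, 1 of 5 fibroblast, 1 of 4 leukocyte, 1 of 3 endothelial and 1 of 4 hepatocyte genes had a mean of at least 1 TPM. The leukocyte gene was CD68, which went from 3.85 TPM in the parental cells to 33.0 TPM in isoform 1, while PTPRC and CD3E stayed under 1 TPM. The endothelial gene PECAM1 went from 2.32 TPM to 5.75 TPM in isoform 1 (log2 fold change 1.02), and the hepatocyte gene CPS1 fell in 5 lines, the furthest in isoform 2 (from 20.3 to 11.1 TPM). All libraries came from the HCT116 cell line, and the source of these marker transcripts was not tested. In the isoform 3 line, HNF4A was at 406.9 TPM in replicate 1 but at 833.5 and 771.8 TPM in replicates 2 and 3, and replicate 1 also had the lowest VIL1, MYO1A, USH1C, ESPN, EPS8, PLS1 and EZR of that line. Fold changes and pair differences of the members in this line that are printed below by gene are therefore given with and without replicate 1. Those of genes outside the set use all 3 libraries. Whether replicates come from separate cultures is not stated, so p-values measure the spread between these libraries, which may be technical. In bulk RNA, more cells with a transcript and more transcript per cell cannot be told apart.

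Each line was compared with the parental cells to ask which of these genes change when the isoform is made. VIL1 rose in 10 of the 12 lines and by far the most in isoforms 1, 2 and 3. EPS8 rose in 11 lines, USH1C in 10, EZR in 8 and ESPN in 5, all by smaller factors. MYO1A, nearly absent from the parental cells, rose in isoforms 1, 2, 3 and 10. PLS1 rose in isoform 4 and fell in isoform 7, by small factors, and CDHR2, CDHR5 and MYO7B stayed below 1 TPM in all 39 libraries. The test was limma on log2(TPM + 1) with Benjamini-Hochberg adjustment over the 15003 genes whose mean reached 1 TPM, and a gene is said to have risen or fallen at an adjusted p under 0.05. Log2 fold changes are on this scale, which understates changes of low genes. Of the 10 members 6 passed this filter (VIL1, ESPN, PLS1, EPS8, EZR and USH1C). MYO1A, MYO7B, CDHR2 and CDHR5 did not, and their tests come from a fit of all 39252 genes above 0.

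The filter on low genes fixes part of the counts that follow. VIL1, at 0.554 TPM in the parental cells, passed it through the lines in which it was high. MYO1A, MYO7B, CDHR2 and CDHR5 are not counted. Counting the 6 tested members, 5 rose in isoforms 1, 2 and 3, where 19.8%, 19.7% and 11.2% of all tested genes rose. In isoforms 4, 5 and 6, 4, 2 and 1 of them rose, against 6.26%, 9.57% and 5.94% of all genes. In isoforms 7, 8 and 9, 3, 4 and 3 rose, against 13.4%, 16.9% and 10.9%. In isoforms 10, 11 and 12, 5, 5 and 3 rose, against 17%, 14.5% and 7.92%. A member fell in 2 lines: EZR in isoform 4, where 10.1% of genes fell, and PLS1 in isoform 7, where 26.2% fell. With a minimum change of 1 on the log2 scale added, VIL1 and USH1C were called higher in isoforms 1, 2, 3 and 10, and VIL1 without USH1C in isoforms 7, 8, 9, 11 and 12. No member was called in isoforms 4, 5 and 6, but with a pseudocount of 0.1 in place of 1 the number in isoform 4 was 1. The shares of all tested genes called higher by that stricter rule were 2.74%, 2.36% and 0.653% in isoforms 1 to 3, 0.227%, 0.153% and 0.0933% in isoforms 4 to 6, 1.12%, 0.94% and 0.387% in isoforms 7 to 9, and 1.13%, 1.05% and 0.44% in isoforms 10 to 12. The median log2 fold change of the 6 members was 0.75 in isoform 1 against -0.11 for all tested genes, 0.17 in isoform 6 against -0.01, and 0.41 in isoform 7 against -0.06. Scaling the libraries by the median of their ratios moved the median of all genes from -0.11 to 0.02 in isoform 1 and from -0.09 to 0.02 in isoform 2. Relative to the median of all genes, the isoform 1 fold change of VIL1 was 4.92, that of ESPN 0.94 and that of EPS8 0.77.

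**Figure D1:**
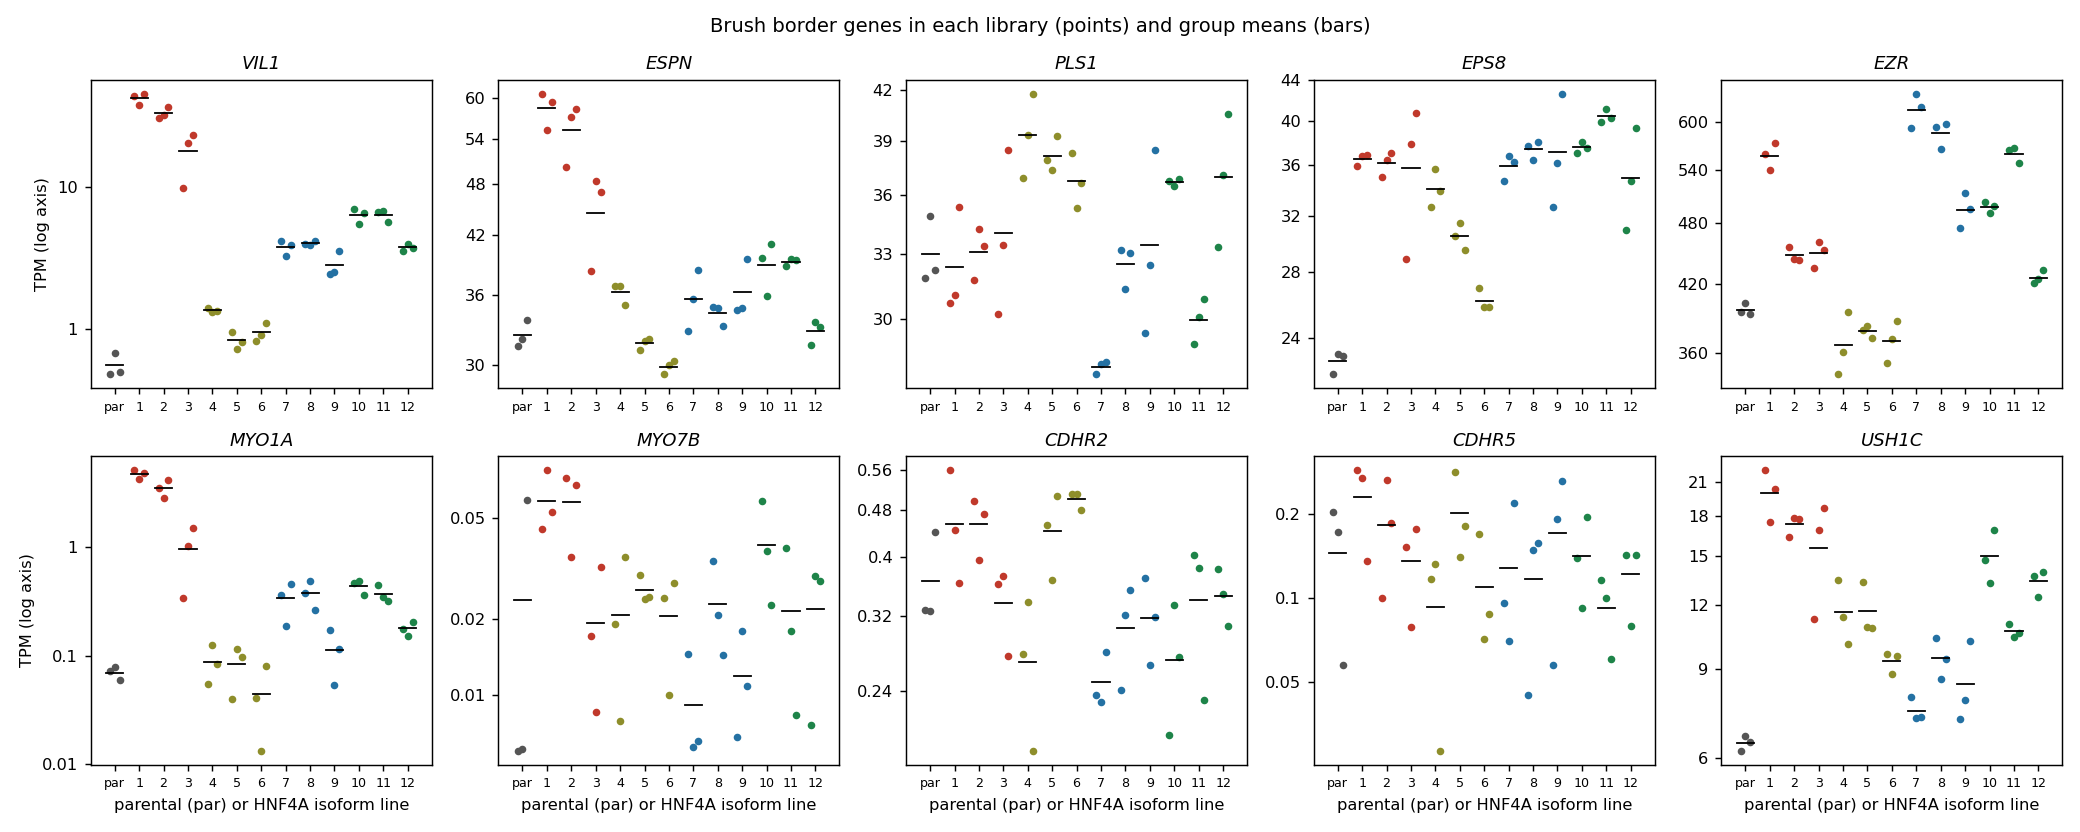
TPM of the 10 genes (log axes) in the parental cells and the 12 isoform lines, with a point for each library and a bar at the mean of 3. VIL1 runs from 0.554 TPM in the parental cells to 42.7 TPM in isoform 1, while PLS1 stays between 28.0 and 39.4 TPM.

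Among the bundling proteins, villin showed the widest range. VIL1 lies on chromosome 2 from 218419092 to 218453295 on the plus strand (GENCODE annotation of GRCh38). In the parental libraries VIL1 was at 0.482, 0.683 and 0.497 TPM. Isoform 1 had 44.2, 38.2 and 45.6 TPM, isoform 2 had 30.7, 32.5 and 36.6 TPM, and isoform 3 had 9.91, 20.7 and 23.4 TPM. These 3 lines stood above every other library, and the low value of isoform 3 is replicate 1. The P2 lines formed a middle step. VIL1 was at 4.20, 3.28 and 3.94 TPM in isoform 7, at 3.97, 3.92 and 4.19 TPM in isoform 8, and at 2.43, 2.51 and 3.54 TPM in isoform 9. Isoform 10 had 7.06, 5.51 and 6.55 TPM, isoform 11 had 6.74, 6.80 and 5.66 TPM, and isoform 12 had 3.57, 4.01 and 3.73 TPM. The exon 1B lines were lowest. VIL1 was at 1.42, 1.33 and 1.33 TPM in isoform 4, at 0.961, 0.722 and 0.813 TPM in isoform 5, and at 0.821, 0.915 and 1.11 TPM in isoform 6.

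All 3 VIL1 libraries of every line lay above all 3 parental ones, also in the lines that did not pass the test. Such a full separation upward was seen in 22.1%, 23.5% and 15.2% of tested genes in isoforms 1 to 3, in 13.2%, 22.3% and 16.7% in isoforms 4 to 6, in 17.2%, 23.5% and 15.4% in isoforms 7 to 9, and in 23.5%, 19.4% and 15.7% in isoforms 10 to 12. The mean was 77.0 times the parental mean in isoform 1 (42.7 TPM ± 3.92 against 0.554 TPM ± 0.112, SD, n = 3), with a log2 fold change of 4.81 ± 0.165 (SE, adjusted p = 2.05e-20). It was 60.0 times the parental mean in isoform 2 (log2 fold change 4.46, adjusted p = 1.54e-19) and 32.5 times in isoform 3 (18.0 TPM ± 7.12, SD, n = 3, log2 fold change 3.53, adjusted p = 3.5e-16). Without replicate 1 of isoform 3, chosen for leaving out after the values were seen, its mean was 22.0 TPM and its log2 fold change 3.89. In the P2 lines the log2 fold changes lay between 1.29 (isoform 9, adjusted p = 6.01e-07) and 2.25 (isoform 11, adjusted p = 3.75e-12). In isoform 4 the mean was 2.46 times the parental mean and the rise was 0.61 (adjusted p = 0.0106). Neither isoform 5 (0.24, adjusted p = 0.388) nor isoform 6 (0.33, adjusted p = 0.237) passed. With a pseudocount of 0.1 in place of 1, isoform 6 passed (0.68, adjusted p = 0.0216). From high to low the lines ran 1, 2, 3, 11, 10, 8, 7, 12, 9, 4, 6, 5 and parental, and neighbouring libraries overlapped between 11 and 10, among 8, 7 and 12, and between 6 and 5. Isoform 7 also overlapped isoform 9.

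Espin rose in 5 of the 10 lines in which VIL1 rose, over a narrower range. ESPN lies on chromosome 1 from 6424776 to 6461367 on the plus strand. It was at 31.5, 32.1 and 33.7 TPM in the parental libraries, at 60.7, 55.2 and 59.5 TPM in isoform 1, at 50.1, 57.2 and 58.4 TPM in isoform 2, and at 38.3, 48.4 and 47.0 TPM in isoform 3. These groups did not overlap the parental one, and 4 more lines (4, 9, 10 and 11) also lay fully above it. The log2 fold change was 0.83 ± 0.0674 (SE, adjusted p = 8.07e-12) in isoform 1, 0.75 (adjusted p = 1.01e-10) in isoform 2 and 0.44 (adjusted p = 1.18e-05) in isoform 3, which was 0.54 without its replicate 1. Isoforms 10 (0.25, adjusted p = 0.00357) and 11 (0.27, adjusted p = 0.00207) passed as well. The other 7 lines did not, with values between -0.12 in isoform 6 and 0.16 in isoforms 4 and 9. In isoform 6 the libraries had 29.3, 29.9 and 30.3 TPM and lay below the parental ones, as 15.9% of tested genes did there. With median-of-ratios scaling ESPN passed in 8 lines. ESPN has a near-identical pseudogene, ESPNP, whose group means were between 0.957 and 2.20 TPM, so the way reads were split between the copies can affect its level.

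Plastin 1, the third bundler, varied within a narrow range, with group means from 28.0 to 39.4 TPM. PLS1 lies on chromosome 3 from 142596387 to 142713664 on the plus strand. The 3 parental libraries had 31.9, 34.9 and 32.3 TPM, isoform 1 had 30.7, 31.1 and 35.4 TPM, and isoform 2 had 31.8, 34.3 and 33.4 TPM, so these lines and the parental cells overlapped. PLS1 was highest in isoform 4 (36.9, 39.4 and 41.8 TPM, log2 fold change 0.25, adjusted p = 0.0252) and lowest in isoform 7 (27.7, 28.1 and 28.2 TPM, log2 fold change -0.23, adjusted p = 0.0168). Both calls depended on single libraries. The isoform 4 call was lost without parental replicate 1 (adjusted p = 0.0903), without parental replicate 3 (0.0866) and without either of 2 of its own libraries (0.0628 and 0.115), and also with no filter on low genes (0.0545). With median-of-ratios scaling the isoform 4 call was kept (0.31, adjusted p = 0.000935). Isoforms 5 (0.19, adjusted p = 0.0428) and 10 (0.20, adjusted p = 0.0187) also passed with that scaling. The isoform 7 call was lost without parental replicate 2 (adjusted p = 0.0874) and with median-of-ratios scaling (-0.13, adjusted p = 0.107). In the authors' own comparison PLS1 was higher in 7 lines at an adjusted p under 0.05 and lower in none. It passed there in isoform 4 (0.29, adjusted p = 5.33e-06) and did not in isoform 7 (-0.14, adjusted p = 0.0744). PLS1 lay fully above the parental libraries in isoforms 4, 5, 6 and 10. It lay fully below them in isoforms 7 and 11, where 31.7% and 31.4% of all tested genes did.

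Since TPM is scaled per length, the 3 bundlers can be added up. Their summed level was 66.0 TPM ± 1.95 (SD, n = 3) in the parental cells, 133.5 TPM ± 8.19 in isoform 1, 121.7 TPM ± 8.14 in isoform 2 and 96.6 TPM ± 16.1 in isoform 3. In the other 9 lines it lay between 67.4 and 82.0 TPM. VIL1 made up 0.838% ± 0.149 (SD, n = 3) of that sum in the parental cells. Its share was 31.9% ± 1.06 in isoform 1, 27.3% ± 1.13 in isoform 2 and 18.1% ± 4.76 in isoform 3. It was 3.87% to 8.47% in isoforms 7 to 12 and 1.18% to 1.77% in isoforms 4 to 6. The transcripts of these 3 bundlers thus differed between groups in their mix as well as their amount. Other listed bundlers, named after their values were seen, are not in this sum. PLS3 was at 61.7 TPM in the parental cells and 55.9 TPM in isoform 1. FSCN1 was at 338.2 TPM in the parental cells and lower in isoform 1 (log2 fold change -0.64, adjusted p = 1.65e-11). MISP was higher there (2.67, adjusted p = 7.59e-21). The shares of VIL1 hold only within the 3 genes. PLS1 and ESPN made up nearly all of the sum in the parental cells.

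**Figure D2:**
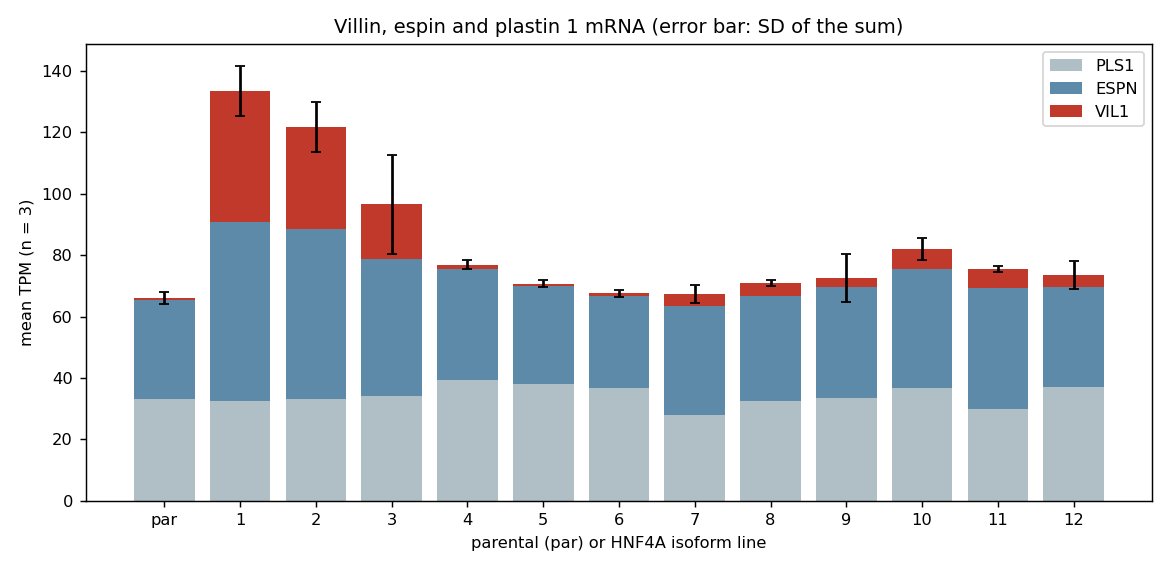
Stacked mean TPM of PLS1, ESPN and VIL1 in the parental cells and each line (linear axis from 0), with the SD of the sum over 3 libraries as the error bar. The sum is 66.0 TPM in the parental cells and 133.5 TPM in isoform 1, and the VIL1 layer is thick in isoforms 1, 2 and 3.

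EPS8, which caps and bundles actin filaments at the tip, had the most even response. It lies on chromosome 12 from 15620158 to 15882329 on the minus strand. The parental libraries had 22.0, 23.1 and 23.0 TPM. Isoform 1 had 36.0, 36.8 and 36.9 TPM, isoform 7 had 34.7, 36.8 and 36.3 TPM, and isoform 11 had 39.9, 41.1 and 40.3 TPM. Every library of every line lay above the parental ones. In the 11 lines that passed, the log2 fold change ran from 0.41 in isoform 5 (adjusted p = 0.000794) to 0.80 ± 0.0827 (SE) in isoform 11 (adjusted p = 4.31e-09). Isoform 6, at 27.0, 25.8 and 25.8 TPM, was closest to the parental level (0.20, adjusted p = 0.137) and passed with median-of-ratios scaling (0.22, adjusted p = 0.0359). Isoform 6 stood apart, above the parental cells and below every other line. The libraries of the other 11 lines overlapped in a chain, from 28.9 TPM in isoform 3 to 42.6 TPM in isoform 9. In isoforms 7 to 9 EPS8 ranged from 32.7 to 42.6 TPM and in isoforms 1 to 3 from 28.9 to 40.7 TPM, so these ranges overlapped, which those of VIL1 did not.

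Ezrin, the linker between actin and membrane, was the most abundant of the 10 transcripts and was highest in P2 lines. EZR lies on chromosome 6 from 158765741 to 158819412 on the minus strand. It was at 394.1, 402.1 and 392.6 TPM in the parental cells, at 592.0, 638.7 and 619.6 TPM in isoform 7, at 593.5, 565.9 and 597.9 TPM in isoform 8, and at 559.0, 539.4 and 573.2 TPM in isoform 1. Isoform 11 was in the same range, at 564.1, 566.2 and 548.6 TPM. The libraries of isoforms 7, 8, 11 and 1 overlapped in a chain and lay above those of all other groups. The log2 fold change was 0.64 ± 0.0387 (SE, adjusted p = 3.81e-14) in isoform 7, 0.56 (adjusted p = 1.27e-12) in isoform 8, 0.50 (adjusted p = 1.36e-11) in isoform 11 and 0.49 (adjusted p = 4.58e-12) in isoform 1. Isoforms 2, 3, 9 and 10 rose by 0.17 to 0.33, and the value of isoform 3 was 0.20 without its replicate 1. Isoform 12 (0.10, adjusted p = 0.0732) did not pass, although its libraries lay above the parental ones.

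In the exon 1B lines EZR was not raised. Isoform 4 had 344.0, 361.5 and 394.2 TPM, isoform 5 had 379.3, 382.5 and 372.7 TPM, and isoform 6 had 352.6, 372.0 and 386.3 TPM. Isoform 4 overlapped the parental libraries, and isoforms 5 and 6 lay fully below them, as 15.7% and 15.9% of tested genes did in those lines. The fold change of -0.11 in isoform 4 passed (adjusted p = 0.0412), but it did not pass with median-of-ratios scaling (-0.05, adjusted p = 0.448) or without any 1 of parental replicates 1, 2 and 3 (adjusted p = 0.0775, 0.129 and 0.0759). It was also lost without either of 2 of the line's own libraries (adjusted p = 0.267 and 0.124). EZR shares its locus with the antisense gene EZR-AS1, whose group means were 0.0840 to 1.22 TPM. The strand setting of the quantification is not given in the sources used here.

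MYO1A, the motor that ties the actin core to the membrane along its length, rose from a trace level in isoforms 1, 2 and 3. It lies on chromosome 12 from 57028517 to 57051198 on the minus strand, and its annotated span overlaps TAC3 on the same strand. The parental libraries had 0.0719, 0.0781 and 0.0599 TPM. MYO1A was at 5.06, 4.20 and 4.79 TPM in isoform 1, at 3.45, 2.83 and 4.10 TPM in isoform 2, and at 0.339, 1.02 and 1.49 TPM in isoform 3. These means were 66.9, 49.4 and 13.6 times the parental mean. Isoforms 1 and 2 did not overlap with each other or any other group, and the low value of isoform 3 is again replicate 1. In the fit of all 39252 genes, the log2 fold change was 2.41 ± 0.128 (SE, adjusted p = 5.09e-15) in isoform 1 and 2.05 (adjusted p = 2.39e-13) in isoform 2, past the minimum change of 1 that 1.22% and 1.02% of genes passed upward. It was 0.82 (adjusted p = 4.86e-05) in isoform 3 and 1.07 there without replicate 1. Isoform 10 passed too, with 0.462, 0.488 and 0.361 TPM (0.42, adjusted p = 0.0213), and this adjusted p rose to as much as 0.0741 when single libraries were left out. The shares of all genes that rose in isoforms 1, 2, 3 and 10 in this fit were 8.79%, 8.34%, 3.97% and 6.51%.

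In the other P2 lines MYO1A did not pass the threshold in limma. Isoform 7 had 0.359, 0.187 and 0.461 TPM (log2 fold change 0.31, adjusted p = 0.0984). Isoform 8 had 0.374, 0.482 and 0.265 TPM (0.36, adjusted p = 0.0642) and isoform 11 had 0.450, 0.347 and 0.320 TPM (0.36, adjusted p = 0.0571). By the authors' own comparison MYO1A was higher in isoforms 7 (1.03, adjusted p = 5.4e-05), 8 (0.90, adjusted p = 6.64e-06) and 11 (1.16, adjusted p = 9.4e-07). It had no adjusted p there in isoforms 9 and 12. All 3 libraries were above all parental ones in isoforms 1, 2, 3, 7, 8, 10, 11 and 12, where this held for 11.1%, 11.2%, 7.21%, 8.26%, 10.9%, 11.3%, 8.98% and 7.78% of genes. In isoforms 4, 5, 6 and 9 they overlapped the parental range, with means between 0.0449 and 0.114 TPM. Read numbers were low there: the authors' mean normalised counts of MYO1A in these lines were 8.874, 8.775, 5.826 and 10.09. Each count is a mean over a line and the parental libraries. The highest was 285.9, for isoform 1.

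The promoters were searched for recognition sequences of HNF4A, since VIL1, MYO1A and USH1C were higher in many of the same lines. RefSeq promoter windows (build GRCh38.p14) were matched by symbol for 6 members (MYO7B, PLS1, CDHR2, EZR, USH1C and MYO1A), at 12 annotated starts, and the 250 bases before each start were read on both strands. The promoter set used held no window for VIL1, ESPN, EPS8 and CDHR5, so these genes were not searched. The motifs were CAAAGTCCA, the looser CAAAGNNCA, which contains it, and the direct repeat AGGTCANAGGTCA. They occurred in 0.3246%, 4.44% and 0.01709% of 35116 promoter windows of the same length. A match was found at 1 of the 12 starts, a start inside MYO1A. The windows of both MYO1A starts are shown 5′ to 3′ on the gene's strand. Both USH1C starts are shown too, as the other searched member with a called change of at least 1 on the log2 scale. The capitals mark the match, which reads CAAAGTCCA on the opposite strand and has 21 bases between it and the start. A match describes letters in a window and does not show binding.
MYO1A, chr12:57050130-57050379, minus strand: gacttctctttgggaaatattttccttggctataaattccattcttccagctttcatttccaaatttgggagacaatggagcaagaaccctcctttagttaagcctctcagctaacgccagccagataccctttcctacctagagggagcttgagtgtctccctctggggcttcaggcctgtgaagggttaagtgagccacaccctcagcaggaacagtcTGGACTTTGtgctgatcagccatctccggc
MYO1A, chr12:57051199-57051448, minus strand: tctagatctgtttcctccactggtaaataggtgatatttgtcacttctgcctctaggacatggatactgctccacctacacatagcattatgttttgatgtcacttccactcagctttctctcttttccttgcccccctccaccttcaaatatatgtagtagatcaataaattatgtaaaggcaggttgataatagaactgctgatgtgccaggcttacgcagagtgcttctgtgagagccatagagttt
USH1C, chr11:17544417-17544666, minus strand: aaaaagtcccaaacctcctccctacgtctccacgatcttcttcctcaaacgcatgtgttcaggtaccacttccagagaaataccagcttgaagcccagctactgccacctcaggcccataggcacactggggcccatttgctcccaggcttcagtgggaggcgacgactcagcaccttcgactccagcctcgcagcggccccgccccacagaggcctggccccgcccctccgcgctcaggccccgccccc
USH1C, chr11:17533886-17534135, minus strand: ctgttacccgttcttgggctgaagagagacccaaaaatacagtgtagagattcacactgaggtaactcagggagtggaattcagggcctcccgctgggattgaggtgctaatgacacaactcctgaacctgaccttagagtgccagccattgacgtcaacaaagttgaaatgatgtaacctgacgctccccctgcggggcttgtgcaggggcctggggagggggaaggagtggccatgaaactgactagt

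Of the 4 members of the adhesion complex, only the scaffold was expressed at more than 1 TPM, and it rose in most lines. USH1C, which encodes harmonin, lies on chromosome 11 from 17493895 to 17544416 on the minus strand. The parental libraries had 6.21, 6.63 and 6.46 TPM. USH1C was at 22.1, 17.5 and 20.3 TPM in isoform 1, at 16.3, 17.9 and 17.7 TPM in isoform 2, and at 11.3, 16.9 and 18.6 TPM in isoform 3. Isoform 10 had 14.7, 13.3 and 16.9 TPM and isoform 12 had 13.7, 12.5 and 14.0 TPM, so isoform 10 reached into the range of isoforms 2 and 3. Isoform 12 lay below isoform 2 and overlapped isoform 3 through replicate 1 of the latter. Isoform 7 was nearest the parental level, with 7.91, 7.21 and 7.22 TPM. Every line lay fully above the parental libraries.

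The log2 fold change of USH1C was 1.49 ± 0.126 (SE, adjusted p = 2.11e-11) in isoform 1, 1.30 (adjusted p = 4.86e-10) in isoform 2, 1.13 (adjusted p = 5.4e-08) in isoform 3 and 1.10 (adjusted p = 5.11e-08) in isoform 10. The value of isoform 3 was 1.33 without its replicate 1. Isoform 12 followed with 0.95 (adjusted p = 2.26e-06). USH1C also rose in all 3 exon 1B lines: by 0.76 in both isoform 4 (adjusted p = 6.57e-05) and isoform 5 (adjusted p = 7.53e-05), and by 0.47 in isoform 6 (adjusted p = 0.0145). The isoform 6 call was lost without parental replicate 1 (adjusted p = 0.052) or without its own replicate 3 (0.0525). Isoforms 7 (0.18, adjusted p = 0.263) and 9 (0.32, adjusted p = 0.0642) did not pass, and isoform 9 passed without its replicate 1 (0.42, adjusted p = 0.026) and with median-of-ratios scaling (0.35, adjusted p = 0.0334). Neighbours in the order of USH1C levels overlapped, except that isoform 11 lay above isoform 8 and isoform 7 above the parental cells.

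The 2 protocadherins and the motor of the complex were at trace level. CDHR2 (chromosome 5, 176542511 to 176595974, plus strand) was between 0.191 and 0.558 TPM over the 39 libraries, and CDHR5 (chromosome 11, 616565 to 626078, minus strand) between 0.0284 and 0.286 TPM. MYO7B (chromosome 2, 127535802 to 127637729, plus strand) was between 0.00604 and 0.0768 TPM. In the fit of all genes CDHR2 and CDHR5 passed in no line, and MYO7B differed by 0.05 in isoform 1 (adjusted p = 0.0357) and in isoform 2 (adjusted p = 0.0395), a difference of a few hundredths of a TPM whose libraries overlapped the parental range. In the authors' deposited tables the mean normalised counts were 43.03 to 61.79 for CDHR2, 8.351 to 17.61 for CDHR5 and 3.195 to 9.629 for MYO7B, with an adjusted p under 0.05 in none. A test that is not passed at such low levels does not show that a gene was unchanged.

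**Figure D3:**
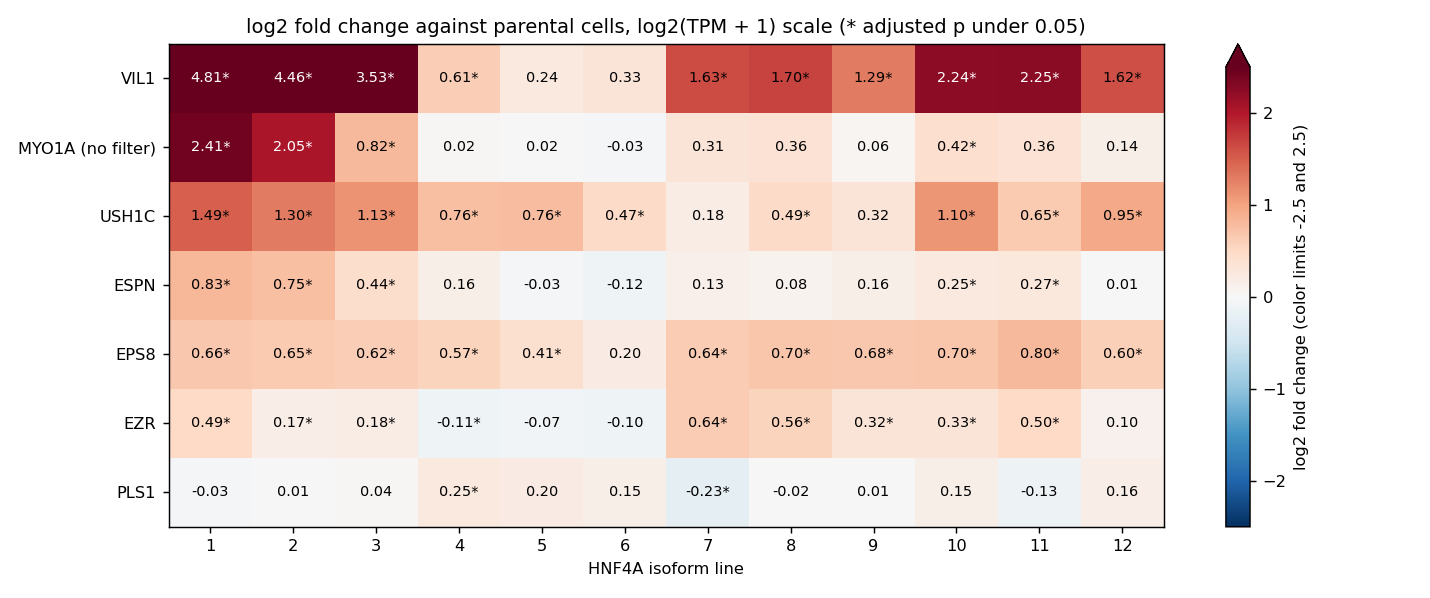
Log2 fold change against the parental cells on the log2(TPM + 1) scale, for the 7 members that reached 1 TPM in any library (rows) and the 12 lines (columns), with an asterisk at an adjusted p under 0.05. VIL1 is 4.81 in isoform 1 and 0.24 in isoform 5, beyond and within the colour limits, and MYO1A comes from the fit of all genes.

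The 12 lines were then compared with each other in 17 pairs that differ in 1 part of the protein. These differences do not use the parental libraries, and the values are log2 differences between the lines in the same fit. The exon 1B lines and the P2 lines had less VIL1 than their partners among isoforms 1 to 3 in all 6 such pairs, with differences from -4.22 to -2.24. ESPN and USH1C were lower in the same 6 pairs. EZR was lower in the exon 1B partner in 3 of 3 pairs and higher in the P2 partner in 3 of 3.

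For promoter P2 against P1, isoform 7 was below isoform 1 by a VIL1 difference of -3.18 ± 0.165 (SE, adjusted p = 2.81e-15), isoform 8 below isoform 2 by -2.77 and isoform 9 below isoform 3 by -2.24. In the pair of 7 and 1 the members that were lower were VIL1, ESPN (-0.70), USH1C (-1.31) and PLS1 (-0.20, adjusted p = 0.0356), where 16.8% of all tested genes were lower. EZR was higher in isoform 7 (0.15, adjusted p = 0.0031), as 23.2% of genes were. In the pair of 8 and 2, VIL1, ESPN (-0.67) and USH1C (-0.81) were lower, with 14.7% of genes, and EZR was higher by 0.39 (adjusted p = 2.38e-09), with 29.5%. In the pair of 9 and 3, VIL1, ESPN (-0.28) and USH1C (-0.81) were lower, with 9.21% of genes. EZR was higher there by 0.14 (adjusted p = 0.0118), with 9.54% of genes, but not without replicate 1 of isoform 3 (0.11, adjusted p = 0.0592) or with median-of-ratios scaling (0.11, adjusted p = 0.0583). Without that library the VIL1, ESPN and USH1C differences of this pair were -2.60, -0.39 and -1.01, so that USH1C also passed a difference of 1. A difference of at least 1 downward was reached by VIL1 and USH1C in the first pair and by VIL1 in the other two, where 1.17%, 1.05% and 0.433% of genes reached it. EPS8 differed by -0.02 between isoforms 7 and 1, with a 95% interval from -0.19 to 0.14.

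For exon 1B, the VIL1 difference was -4.20 ± 0.165 (SE, adjusted p = 5.44e-19) between isoforms 4 and 1, -4.22 (adjusted p = 5.67e-19) between isoforms 5 and 2, and -3.20 (adjusted p = 3.65e-15) between isoforms 6 and 3. In the pair of 4 and 1, VIL1, ESPN (-0.67), EZR (-0.60) and USH1C (-0.73) were lower, with 21.8% of genes, and PLS1 was higher (0.27, adjusted p = 0.00296), with 33.4%. In the pair of 5 and 2, VIL1, ESPN (-0.78), EPS8 (-0.24), EZR (-0.24) and USH1C (-0.54) were lower, with 18.1% of genes, and PLS1 was higher (0.20, adjusted p = 0.0288), with 35.8%, a call lost with median-of-ratios scaling (adjusted p = 0.389). In the pair of 6 and 3, VIL1, ESPN (-0.56), EPS8 (-0.42), EZR (-0.28) and USH1C (-0.66) were lower, with 9% of genes. Without replicate 1 of isoform 3 these 5 differences were -3.56, -0.66, -0.57, -0.30 and -0.86. VIL1 passed the difference of 1 downward in each of these pairs, as 2.76%, 2.02% and 0.613% of genes did.

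MYO1A was lower in the same 6 pairs in the fit of all genes. Its difference was -2.09 between isoforms 7 and 1, -1.69 between 8 and 2, -0.76 between 9 and 3, -2.38 between 4 and 1, -2.03 between 5 and 2, and -0.85 between 6 and 3 (adjusted p at most 0.000173). The shares of genes lower in these 6 pairs were 7.02%, 6.16%, 3.45%, 9.91%, 7.83% and 3.22%. Without replicate 1 of isoform 3, the differences of isoforms 9 and 6 from isoform 3 were -1.01 and -1.10.

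Within promoter P2, isoforms 10 to 12 differ from 7 to 9 in the first residues. VIL1 (0.62, adjusted p = 0.00572), USH1C (0.91, adjusted p = 1.85e-06) and PLS1 (0.38, adjusted p = 0.000342) were higher in isoform 10 than in isoform 7, with 17.4% of genes, and EZR was lower (-0.31, adjusted p = 3.32e-07), with 8.17%. VIL1 was higher in isoform 11 than in isoform 8 (0.55, adjusted p = 0.0267), with 3.46% of genes. USH1C was higher in isoform 12 than in isoform 9 (0.63, adjusted p = 0.000569), with 9.13% of genes, and EZR was lower (-0.21, adjusted p = 0.000153), with 7.55%. VIL1 in that pair (0.33, adjusted p = 0.194) did not pass.

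The 10-residue insertion went with few differences. EZR was lower in isoform 2 than in isoform 1 (-0.32, adjusted p = 6.9e-07), with 6.97% of genes. In isoform 11 against isoform 10, EZR was higher (0.17, adjusted p = 0.00264), with 4.52% of genes, while USH1C (-0.45, adjusted p = 0.0161) and PLS1 (-0.28, adjusted p = 0.0108) were lower, with 8.9%. No tested member passed in limma between isoforms 5 and 4 or between 8 and 7, with 2 of the 6 at an unadjusted p under 0.05 in each pair, while 7.95% and 11.1% of genes were higher and 2.12% and 3.32% lower. This depended on the setting. With median-of-ratios scaling, ESPN (-0.26, adjusted p = 0.00668) and EPS8 (-0.23, adjusted p = 0.0308) were lower in isoform 5 than in isoform 4. Scaling also put EZR lower in isoform 8 than in isoform 7 (-0.13, adjusted p = 0.0214). With a pseudocount of 0.1, VIL1 was lower in isoform 5 than in isoform 4 (-0.66, adjusted p = 0.0275). The sign of the EZR difference was thus opposite in the pair of 2 and 1 and the pair of 11 and 10, and the difference between those differences was -0.49 ± 0.0548 (SE, adjusted p = 1.06e-07), a comparison added after the data were seen, in which 6.12% of genes were lower. For USH1C, the difference between isoforms 8 and 7 exceeded that between 11 and 10 by 0.75 ± 0.179 (SE, adjusted p = 0.00261), where 16.8% of genes were higher.

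The shortened C-terminus went with lower VIL1 in 2 of 4 pairs. Isoform 3 was below isoform 1 in VIL1 (-1.28, adjusted p = 2.41e-07), ESPN (-0.39, adjusted p = 2.19e-05), EZR (-0.31, adjusted p = 1.36e-07) and USH1C (-0.36, adjusted p = 0.0225), with 13.8% of genes lower, and 1.17% past the difference of 1. Without replicate 1 of isoform 3 the VIL1 difference was -0.92, that of ESPN -0.29 and that of EZR -0.29, all of which still passed, and that of USH1C (-0.16, adjusted p = 0.326) no longer did. MYO1A was also lower in isoform 3 than in isoform 1 (-1.59, and -1.34 without replicate 1), with 6.14% of genes in the fit of all genes. Isoform 12 was below isoform 10 in VIL1 (-0.62, adjusted p = 0.00759), ESPN (-0.24, adjusted p = 0.0119) and EZR (-0.22, adjusted p = 0.000104), with 7.83% of genes. Isoform 6 was below isoform 4 in ESPN (-0.27, adjusted p = 0.00621) and EPS8 (-0.37, adjusted p = 0.00269), with 3.67% of genes. Isoform 9 was below isoform 7 in EZR (-0.32, adjusted p = 5.09e-07), with 4.69% of genes, and above it in PLS1 (0.24, adjusted p = 0.03), with 10.8%. That PLS1 call was lost with median-of-ratios scaling (adjusted p = 0.0665).

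**Figure D4:**
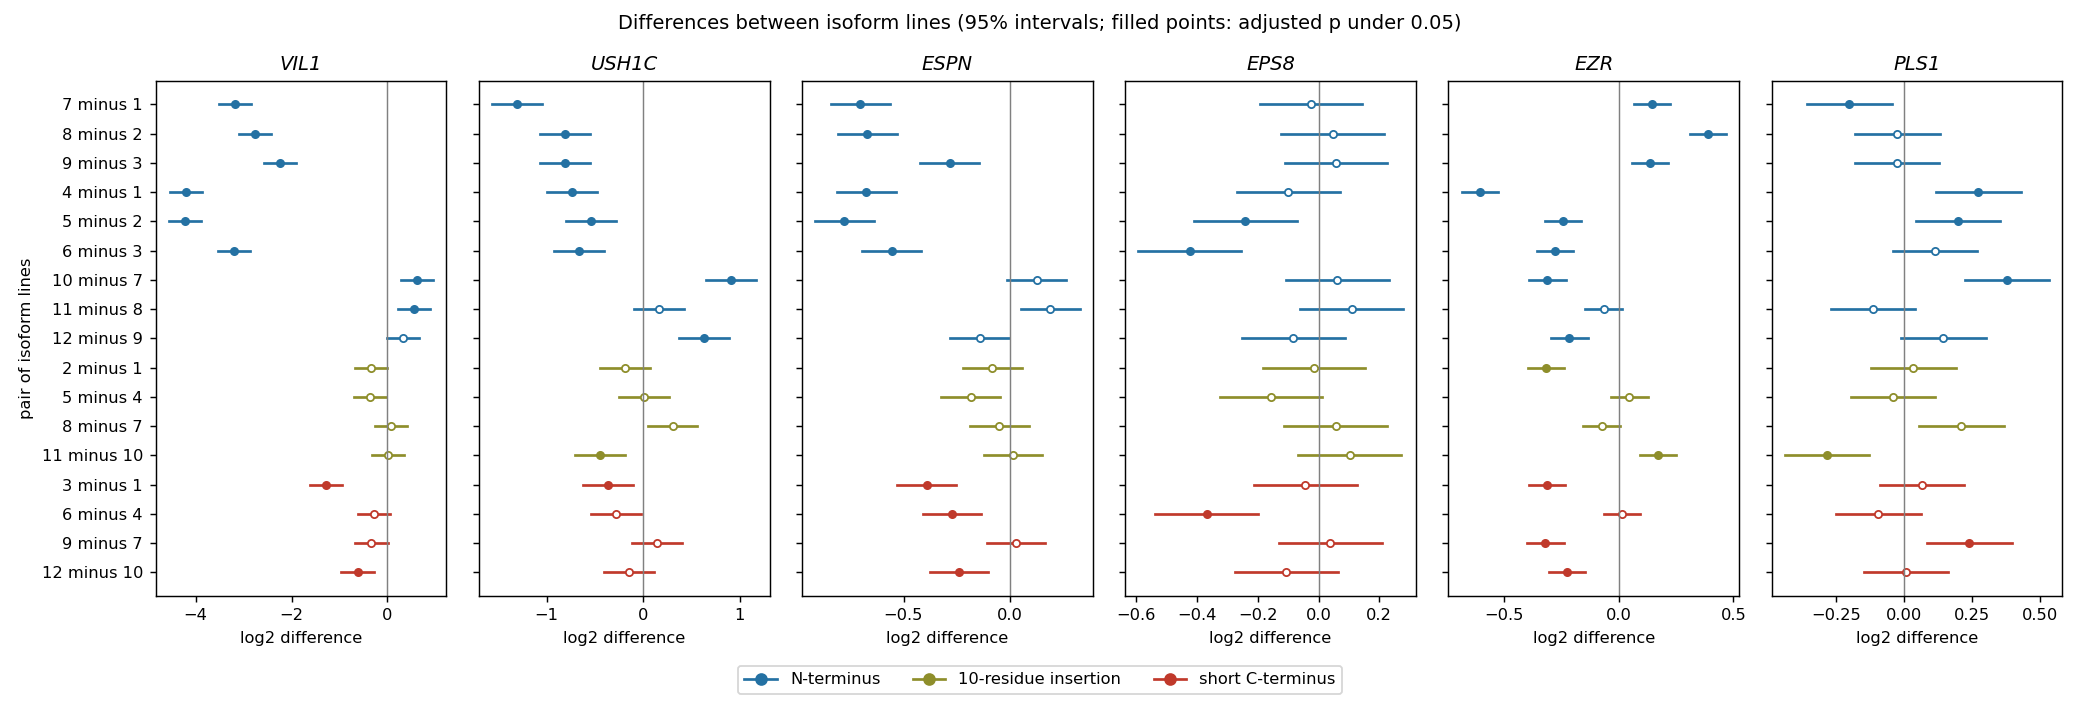
Log2 differences (points) with 95% intervals (lines) of the 6 tested members in 17 pairs of lines, filled where the adjusted p was under 0.05. VIL1 lies between -4.22 and -2.24 in the 6 pairs that set exon 1B or P2 lines against isoforms 1 to 3, and EZR changes side between those pairs.

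With the line as the unit, each isoform class was tested over the 12 line means in a model that adds an N-terminal and a C-terminal term. Isoforms 4 to 6 were below isoforms 1 to 3 in VIL1 (-3.88 ± 0.19, SE, adjusted p = 2.74e-05), ESPN (-0.67, adjusted p = 0.00108), USH1C (-0.64, adjusted p = 0.00793), EZR (-0.37, adjusted p = 0.0137) and EPS8 (-0.25, adjusted p = 0.0264). Of all tested genes 12.6% were lower in this contrast, and 1.37% by at least 1. Isoforms 7 to 9 were below isoforms 1 to 3 in VIL1 (-2.73, adjusted p = 0.000423), ESPN (-0.55, adjusted p = 0.00697) and USH1C (-0.97, adjusted p = 0.00589), where 4.95% of genes were lower and 0.493% by at least 1. EZR (0.22, adjusted p = 0.127) did not pass here, and EPS8 differed by 0.03 with a 95% interval from -0.14 to 0.19. Between isoforms 10 to 12 and 7 to 9 no member passed, nor did any tested gene (0% higher and 0% lower), and 2 members, VIL1 and USH1C, had an unadjusted p under 0.05. The insertion called no gene in limma (0% in either direction), with 0 of the 6 members at an unadjusted p under 0.05. For the short C-terminus 0.0133% of genes were lower and 0% higher, none of them a member, and VIL1, ESPN and EZR had an unadjusted p under 0.05 (VIL1 -0.55, adjusted p = 0.127).

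Other genes of the brush border were taken from a list of 38, of which 25 passed the filter. Against the shares of all genes given above for the rule with a minimum change of 1, this list had 7 genes higher in isoform 1, 7 in isoform 2, 2 in isoform 3, 0 in isoforms 4 to 6, 3, 2 and 0 in isoforms 7 to 9, and 3, 3 and 0 in isoforms 10 to 12, with none lower by that rule in any line. By the adjusted p alone, listed genes moved both ways. In isoform 1, 13 rose and 5 fell, in isoform 2, 14 and 6, in isoform 7, 14 and 7, and in isoform 11, 13 and 5, where 38.7%, 35.6%, 26.2% and 24% of all tested genes fell. The median of the 25 in isoform 1 was 0.23, against -0.11 for all tested genes. The genes called were MISP, COBL and EPS8L2 among 7 tested of 9 for actin bundling and assembly, SLC9A3R1 among 6 of 7 for membrane linkers, MYO5B among 9 of 9 for motors and apical traffic, CALML4 as the 1 tested of 2 adhesion partners, and ANPEP among 2 of 11 enzymes and membrane proteins. ANPEP, at 0.158 TPM in the parental cells, passed the filter only through the lines in which it was high. Its part in the counts above is therefore partly fixed by the filter.

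MISP, an actin-bundling protein of the microvillus rootlet, was called in 7 lines and went from 10.5 TPM ± 0.501 (SD, n = 3) in the parental cells to 77.8 TPM ± 1.85 in isoform 2 (log2 fold change 2.78, adjusted p = 3.76e-21). SLC9A3R1, the scaffold that binds ezrin, went from 88.3 TPM to 358.6 TPM in isoform 1 (2.01, adjusted p = 9.69e-19) and was called in 4 lines. COBL, an actin nucleator, went from 12.1 to 40.2 TPM in isoform 1 (1.65, adjusted p = 6.71e-14), also called in 4 lines. CALML4, a light chain of MYO7B, went from 8.12 to 27.7 TPM in isoform 1 (1.65, adjusted p = 2.68e-16). The other called genes were EPS8L2, a relative of EPS8, and MYO5B, a motor of apical traffic, each called in isoforms 1 and 2 (EPS8L2 1.36 and MYO5B 1.05 in isoform 1). None of these 6 was called in isoforms 4 to 6 with the minimum change of 1. By the adjusted p alone, COBL (0.79, adjusted p = 3.65e-06) and SLC9A3R1 (0.41, adjusted p = 0.000587) rose in isoform 4, with 6.26% of genes. COBL (0.55, adjusted p = 0.000574) and EPS8L2 (0.25, adjusted p = 0.0383) rose in isoform 5, with 9.57%.

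ANPEP, an aminopeptidase of the brush border membrane, showed another order of lines. Parental cells had 0.158 TPM ± 0.0335 (SD, n = 3), against 8.36 TPM in isoform 1, 8.46 TPM in isoform 7 and 8.46 TPM in isoform 11, so these 2 P2 lines reached the level of isoform 1. The log2 fold changes there were 3.01, 3.03 and 3.03. In the P2 lines 10 and 9 they were 2.08 and 0.51. In isoform 3 (0.291 TPM, log2 fold change 0.16, adjusted p = 0.277) and isoform 12 (0.299 TPM, 0.17, adjusted p = 0.31) ANPEP did not pass. Among low or opposite genes of the list, named after their values were seen, EPS8L3 was listed at 0 in all parental libraries, and isoform 1 had 4.74, 4.13 and 3.81 TPM. TREH, a brush border disaccharidase, was at 0.0675 TPM in the parental cells and 2.55 TPM in isoform 1. FSCN1, a bundler of filopodia, was lower in 9 lines at an adjusted p under 0.05. It was lowest in isoform 7 (214.9 against 338.2 TPM, -0.65, adjusted p = 3.38e-11). By the same rule STX3 fell in 6 lines and RAB11A in 5, while DPP4 fell in 5 and rose in 3. The enzymes SI, LCT, ALPI and MGAM and the adhesion protein CDH17 stayed under 0.25 TPM in every library.

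**Figure D5:**
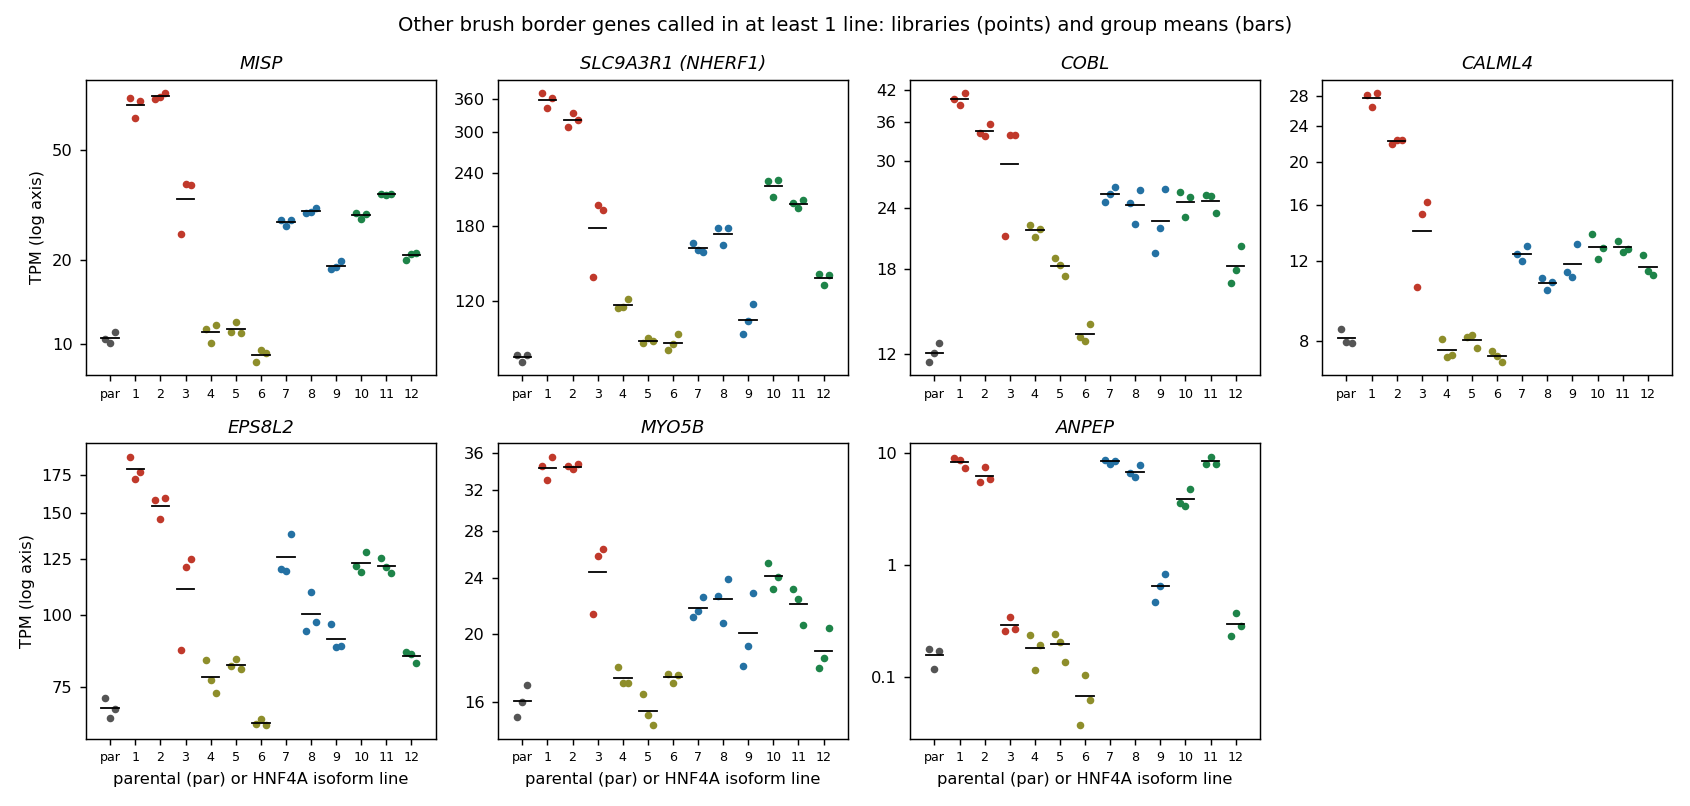
TPM of the 7 listed brush border genes called in at least 1 line (log axes), with a point per library and a bar at the mean of 3. MISP is 10.5 TPM in the parental cells and 77.8 TPM in isoform 2, and ANPEP is near 8.4 TPM in isoforms 1, 7 and 11.

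The members were also compared in how they follow the 13 group means, as a description over points that share libraries. On the log2(TPM + 1) scale Pearson's r was 0.946 for VIL1 and ESPN, 0.922 for VIL1 and MYO1A, 0.953 for ESPN and MYO1A, 0.784 for VIL1 and USH1C and -0.808 for PLS1 and EZR. VIL1 and HNF4A had r = 0.251 over the 13 groups and -0.614 over the 12 lines alone, while the other pairs named kept their sign without the parental group. The genes outside the set with the highest r to VIL1 were DNAJC22 (0.987, 14.6 TPM in the parental cells and 104.3 TPM in isoform 1), LINC02313 (0.986, listed at 0 and at 14.9 TPM) and RBKS (0.984, 11.9 and 54.4 TPM). Those nearest to USH1C were CSRNP1 (0.973, 5.67 and 10.9 TPM), IST1 (0.949, 65.9 and 75.2 TPM) and CHST13 (0.937, 0.726 and 6.09 TPM).

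The authors' deposited tables hold their own comparison of each line with the parental cells. In those tables EPS8 and USH1C were higher at an adjusted p under 0.05 in 12 lines, VIL1 in 11, EZR in 9, ESPN in 8, PLS1 in 7 and MYO1A in 7, with no adjusted p for MYO1A in the other 5. The shares of genes higher in the authors' deposited tables were 20.9%, 21.8% and 18.1% in isoforms 1 to 3, 13.1%, 12% and 9.83% in isoforms 4 to 6, 16.1%, 18.9% and 9.03% in isoforms 7 to 9, and 18.4%, 17.8% and 10.4% in isoforms 10 to 12. VIL1 had a log2 fold change of 6.16 in isoform 1 in the authors' deposited table, and MYO1A 5.36, 4.71 and 1.96 in isoforms 1, 2 and 3. EZR was lower in the authors' deposited table of isoform 5 (-0.08, adjusted p = 0.0145), as were 11.2% of genes. Mean normalised counts in the authors' deposited tables ran from 63.9 to 2089 for VIL1, 509.7 to 1051 for USH1C, 2519 to 3188 for PLS1 and 33560 to 45760 for EZR.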

How the data were processed

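Poly(A) RNA of 39 libraries (3 per group, 13 groups) had been sequenced with a directional kit, per the labels' protocols. The authors deposited 1 table per group of 45446 gene rows with a TPM per library. The tables of the 12 lines also hold, per the file headers, the authors' mean normalised count (a signal over both groups), log2 fold change with its standard error and adjusted p-value. The submitters' processing notes name Trimmomatic 0.36, FastQC 0.11.5, kallisto 0.44.0, DESeq2 1.22.2 and the build GRCh38.p12, without their roles. The annotation and strand setting were not given in the sources used here. TPM keeps no read depth, so no counting interval is given.

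The 12 HNF4A rows were summed to 1, which left 45435 rows. Linear models on log2(TPM + 1) were fitted in R 4.3.3 by limma 3.58.1 (functions lmFit and eBayes, trend on, two-sided). All 39 libraries entered, with 13 group coefficients, leaving 26 residual degrees of freedom. The 15003 genes whose mean reached 1 TPM were tested and p-values were adjusted by Benjamini-Hochberg within each comparison. A call needed an adjusted p below 0.05 plus a log2 fold change of 1 or more in size; a weaker rule used the adjusted p alone. All 17 pairs of lines came from that fit, classes from an additive limma model of the 12 line means. The fit was tested on simulated data. Samples were grouped by their labels; the table columns of isoforms 4 and 5 could not be matched to a replicate number.

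The 10 members, the gene lists and the tests were chosen with earlier results of these data known. Named genes are all members, HNF4A, listed brush border genes called in at least 1 line, and the 3 genes most correlated with each member called in at least 3 lines; exceptions are marked. Alternatives were another pseudocount (0.1), filters (none, 5 TPM), scaling, trend, fold minimum, samples in the fit, a replicate block and leaving out each library.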

Additional observations from a re-analysis of the deposited data

Results flagged for a closer look

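The effect of the shortened C-terminus was compared between N-terminal forms, in 6 differences of differences, which were added after the data were seen together with 6 for the insertion. Those named here passed an adjusted p under 0.05 in limma and a difference of at least 1. For VIL1, the difference between isoforms 3 and 1 was larger downward than that between isoforms 6 and 4, by a value of -1.0005 ± 0.234 (SE, adjusted p = 0.00166). Of all tested genes 1.27% were lower by at least 1 in this comparison. Without replicate 1 of isoform 3 the VIL1 value was -0.64 (adjusted p = 0.00232), short of the minimum of 1. VIL1 had a mean of 1.36 TPM in isoform 4 and 0.949 TPM in isoform 6, a level at which the pseudocount of 1 compresses differences.

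For MYO1A, in the fit of all genes, the difference between isoforms 3 and 1 exceeded downward that between 6 and 4 (-1.53 ± 0.181, SE, adjusted p = 5.4e-07), that between 9 and 7 (-1.33, adjusted p = 2.28e-05) and that between 12 and 10 (-1.30, adjusted p = 1.89e-05). Without replicate 1 of isoform 3 these values were -1.28, -1.08 and -1.05. In the fit of all genes with all libraries, 0.573%, 0.168% and 0.201% of genes were lower by at least 1 in these comparisons. The partners are at trace level, where a difference on the log2(TPM + 1) scale is bounded by the pseudocount.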

How the results depend on the processing

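The number of members called per line was the same in every line with a filter of 5 TPM, median-of-ratios scaling, no trend and only the line and parental libraries in the fit. With a pseudocount of 0.1 it became 1 in isoform 4 and 2 in isoform 12. With no minimum fold it was 5 in isoforms 1, 2, 3, 4, 10 and 11, 4 in isoforms 7 and 8, 3 in isoforms 9 and 12, 2 in isoform 5 and 1 in isoform 6, a total of 47 against 13. When single libraries were left out, the number in isoform 3 was 1 to 2 (1 without its replicate 3), and in the other lines it did not move. No member's direction reversed where it had passed. Scaling brought 13 member values past the threshold and took 5 below it. Libraries of the same replicate number were weakly alike: over 165 same-numbered pairs the correlation of deviations was -0.175 to 0.232 (median 0.054). It was over 0.1 in 38 pairs, and such a correlation cannot exclude a pairing. With the replicate number as a block, over the 10 lines with numbered libraries, 15 calls were made, against 15 on the same libraries without it and 13 in the fit of all libraries. Dropping the unnumbered libraries let MYO1A pass the filter on low genes. With the block, MYO1A in isoform 8 (adjusted p = 0.0497, against 0.0524 on the same libraries without it) and USH1C in isoform 9 (0.0442 against 0.0627) passed. MYO1A in isoform 11 (0.0455) and EZR in isoform 12 (0.0369) also passed on these libraries without the block (0.0469 and 0.0482). Depth is unknown from TPM, and MYO7B, CDHR2 and CDHR5 lay under 1 TPM, where the pseudocount compresses differences.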
